A study of Homo sapiens with 6 samples.

Results

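The EGF receptor family and its ligands were examined as 10 genes, 4 receptors (EGFR, ERBB2, ERBB3, ERBB4) and 6 ligands (TGFA, HBEGF, AREG, EREG, BTC, NRG1), picked by symbol from the 58395 gene identifiers of the deposited count table. All 10 symbols were found, each under a single identifier. RNA sequencing had been run on 6 libraries of H1, a human embryonic stem cell line derived from a blastocyst. The groups are: WT (genotype WT, n = 2), KO 1# (BRPF1 knockout, n = 2) and KO 2# (BRPF1 knockout, n = 2). All share the H1 background, and the labels record no treatment, time point or further allele. What separates 1# from 2# (a clone, a guide or another feature), the edited part of BRPF1, and whether replicates were grown separately are not stated in the labels, so p-values measure the spread between these libraries, which may be technical.

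ERBB receptors are tyrosine kinases of the cell surface that act in pairs. Ligand binding opens the receptor for pairing and starts signalling through RAS and ERK, PI3K and AKT, and STAT proteins. TGFA, AREG and EGF bind EGFR, HBEGF, EREG and BTC bind EGFR and ERBB4, and neuregulin 1 (NRG1) binds ERBB3 and ERBB4. ERBB2 has no known ligand and serves as the preferred partner of the others, while ERBB3 has very weak kinase activity and signals through its partner. In human embryonic stem cell culture, neuregulin signalling through ERBB2 and ERBB3 is known to support self-renewal.

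The libraries held 33421785 to 38098779 counts. BRPF1, the targeted scaffold protein of histone acetyltransferase complexes, had 1483 and 1111 counts in the WT libraries, against 1013 and 922 for KO 1# and 702 and 701 for KO 2#. After scaling it was higher than in WT by 0.08 on the log2 scale (SE 0.10, edgeR adjusted p = 0.508). It was 0.22 in KO 1# and -0.07 in KO 2# (edgeR adjusted p = 0.0988 and 0.609). Scaling by library totals moved the median of all genes by -0.73, more than the size of these values. The direction for BRPF1 thus rests on the scaling. Counts per gene do not show whether a transcript carries an edit. Of 10 markers of pluripotent cells, 10 were lower in the knockout libraries, with a summed level of 6487 to 6653 normalised CPM in WT and 21.2 to 40.6 in the knockouts. PRDM14 was at 0 counts in all 4 knockout libraries, NANOG had 0 or 1 and POU5F1 1 to 22, while DPPA4 kept 442 to 893. Markers near 0 in the knockouts, such as PRDM14 and NANOG, reached the minimum count for testing by virtue of WT alone. Their calls are thus no separate support for a fall. Of 12 fibroblast markers 11 were higher and 1 lower, or 10 and 2 by library totals. Their sum was 570 to 597 normalised CPM in WT and 121990 to 134163 in the knockouts. Among them 1 was at 0 counts in all 4 knockout libraries and 2 were at 0 in both WT libraries, so the filter fixed the direction of their calls. Of 14 epithelial markers 14 were lower (1809 to 1837 and 299.95 to 341), and their sum was mostly KRT8 and KRT18 in the knockouts. The other lists are given in the same way. All these counts are to be read beside the 35.8% of all 19660 genes called higher and 41.4% called lower (edgeR, adjusted p below 0.05). Of 9 keratinocyte markers 3 were tested and all 3 were lower (14.9 to 16.7 and 1.09 to 1.42). Trophoblast markers were split, 4 higher and 3 lower of 7 tested among 10, and their sum (13.8 to 16.8 and 127 to 155) was mostly KRT7 in the knockouts, while CGA, VGLL1 and ELF5 were at 0 in all 4 knockout libraries. Neural and glial markers were split as well, 3 higher and 3 lower of 6 tested among 9 (246 to 269 and 207 to 228). This split depended on the fit: it was 2 and 3 with DESeq2 and 1 and 4 by library totals. Of 8 endothelial and blood markers 2 were higher and 4 lower, or 1 and 4 by library totals (134 to 137 and 17.6 to 33.9). In such bulk samples, fewer cells of a type and less RNA per cell cannot be told apart. Normalised CPM are library-size-scaled counts (CPM) adjusted by TMM, a method that assumes most genes do not differ.

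The comparison of both knockout sets with WT asks how the family differs between the labelled genotypes. Of the 10 genes, 7 held enough counts to be tested. EGFR, HBEGF and NRG1 were higher in both knockout sets, and ERBB2, ERBB3, ERBB4 and TGFA were lower. Against both sets together 3 of the 7 were called higher and 4 lower (edgeR, adjusted p below 0.05), beside 35.8% and 41.4% of all 19660 genes tested, or 77.3% in either direction. The same 3 and 4 genes were called in KO 1#, where 35.0% of genes were higher, 38.7% lower and 73.6% either. They were called again in KO 2#, where the shares were 34.6%, 39.1% and 73.7%. The libraries of WT and of the knockouts did not overlap for any of the 7, 3 higher and 4 lower, beside 37.2% and 43.3% of all genes, or 80.4% in all. Being called was thus usual in these comparisons, which share the WT libraries. Scaling by library totals moved the 7 genes together: it made the rises 2.31 for EGFR, 4.27 for HBEGF and 5.80 for NRG1 on the log2 scale, and the falls -7.75 for ERBB3, -5.04 for TGFA and -1.30 for ERBB2, with the same calls. ERBB4 and TGFA reached the minimum count by virtue of WT alone. The filter thus favoured a fall, and their calls are no separate support for one. AREG, EREG and BTC stayed under the filter and were not tested.

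**Figure D1:**
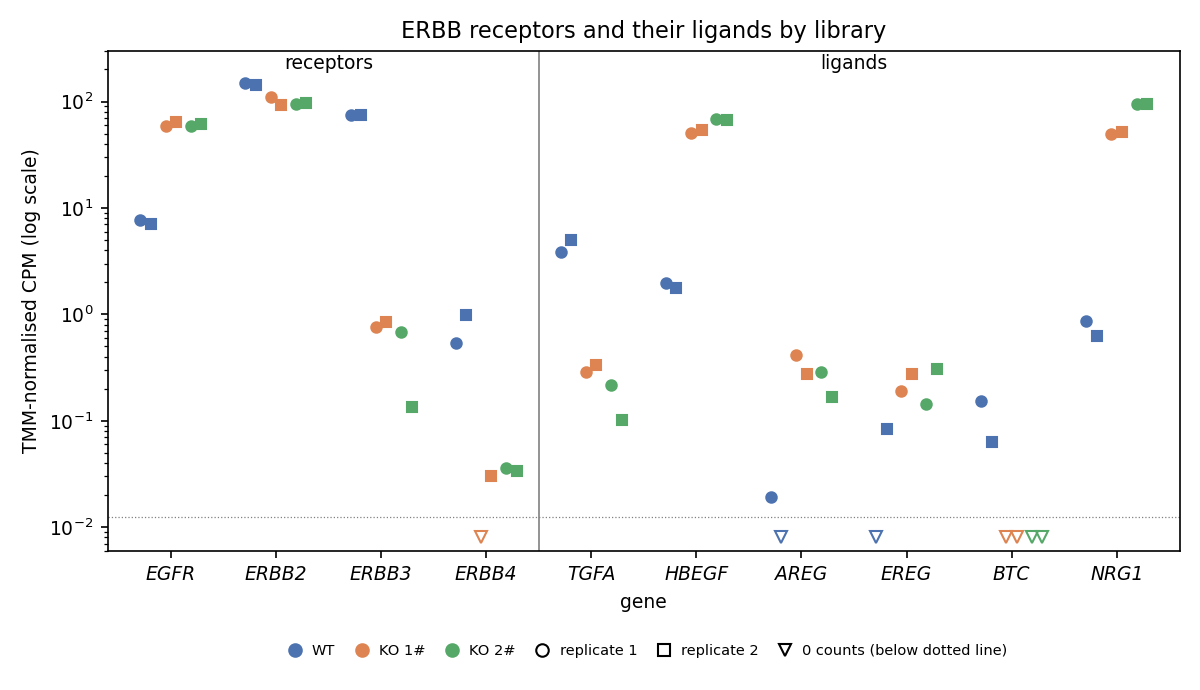
TMM-normalised CPM on a log axis for each of the 10 genes in each of the 6 libraries (blue WT, orange KO 1#, green KO 2#; circles replicate 1, squares replicate 2; open triangles mark 0 counts). EGFR, HBEGF and NRG1 sit higher in all 4 knockout libraries than in WT, ERBB2, ERBB3, ERBB4 and TGFA sit lower, and BTC has 0 counts in all 4.

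Among the receptors EGFR rose. EGFR (ENSG00000146648, chromosome 7, 55019021 to 55211628, plus strand, GRCh38) is the receptor shared by most ligands of the family. Its level was 7.70 and 7.02 normalised CPM in the WT libraries, against 59.2 and 64.5 for KO 1# and 58.8 and 61.0 for KO 2#. All knockout libraries lay above both WT libraries, and the knockout sets overlapped each other. This was an 8.26-fold rise, 3.05 on the log2 scale with an SE of 0.10 (edgeR adjusted p = 2.91e-15), seen in 4 of 4 knockout libraries. It was 3.07 in KO 1# and 3.02 in KO 2#, which share the WT libraries. EGFR-AS1, on the opposite strand, shares 186 exon bases with EGFR and had at most 2 counts in a library. Fibroblast markers rose and epithelial markers fell in the same libraries, and their part in the change of EGFR was not tested.

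ERBB2 was the receptor with the smallest change. ERBB2 (ENSG00000141736, chromosome 17, 39687914 to 39730426, plus strand), the partner receptor, stood at 149 and 144 normalised CPM in the WT libraries, 111 and 92.9 for KO 1# and 94.6 and 97.8 for KO 2#. It was lower in 4 of 4 knockout libraries, by 1.48-fold, or -0.57 on the log2 scale with an SE of 0.07 (edgeR adjusted p = 7.75e-07). The size of this fall depended on the scaling: it was -1.30 by library totals and -0.96 when the 20 most abundant genes were kept out of the totals. Relative to the median of all genes ERBB2 lay at -0.43. MIEN1 and PGAP3, on the opposite strand, share 571 and 194 exon bases with ERBB2 and had 384 to 478 and 543 to 830 counts a library, against 2612 to 7814 for ERBB2.

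ERBB3 showed the largest fall of the 7 tested genes. ERBB3 (ENSG00000065361, chromosome 12, 56076799 to 56103505, plus strand), a neuregulin receptor, had 3876 and 3572 counts in the WT libraries, 24 and 28 for KO 1# and 19 and 4 for KO 2#. The corresponding normalised CPM were 74.1 and 74.4, then 0.764 and 0.849, then 0.688 and 0.135. The WT libraries were nearly equal, and the low value of KO 2# replicate 2 stood apart from the other knockout libraries. The fall was 129-fold, or -7.02 on the log2 scale with an SE of 0.17 (edgeR adjusted p = 6.11e-17). Without KO 2# replicate 1 it was -7.79. In KO 2# alone it was -7.52, and -9.07 or -6.74 without replicate 1 or replicate 2. Epithelial markers fell in the same libraries: CDH1, an adhesion protein, went from 209 ± 6.45 (SD, n = 2) to 1.10 ± 0.616 normalised CPM (SD, n = 4), and ESRP1, a splicing regulator, from 139 ± 1.51 to 0.0473 ± 0.0518. The keratins KRT8 and KRT18 of the same list fell less. KRT8 had 18123 to 20387 raw counts in WT and 5765 to 6270 in the knockouts, and KRT18 9573 to 10157 and 3208 to 3480. These raw counts are not on the scale of the normalised CPM given for CDH1 and ESRP1. Library sizes after TMM scaling were 48008462 to 52308731 in WT and 27601999 to 32998884 in the knockouts, so the scaled falls of both keratins are smaller. The part of the epithelial markers in the fall of ERBB3 was not tested.

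ERBB4, the other neuregulin receptor (ENSG00000178568, chromosome 2, 211375717 to 212538841, minus strand), was scarce throughout. It had 28 and 47 counts in the WT libraries, 0 and 1 for KO 1# and 1 and 1 for KO 2#. With 3 counts in 4 knockout libraries, the WT level was higher by a ratio of 30.3 (95% exact Clopper-Pearson interval 9.99 to 150, counting error only). The edgeR test gave an adjusted p of 5.02e-05 for both knockout sets. ERBB4 reached the minimum count by virtue of WT alone, so this p-value is no separate support for a fall. For KO 2# against WT the adjusted p was 0.00128, a call that was lost when WT replicate 2 was left out (adjusted p = 0.0628).

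The make-up of the receptor pool differed between WT and the knockouts. To compare genes with each other, levels were divided by the length of all exons (RPKM). The 4 receptors summed to 23.1 ± 0.370 RPKM in WT, 14.9 ± 0.932 in KO 1# and 14.2 ± 0.297 in KO 2# (SD, n = 2 each). ERBB2 held the greatest share in each library, 61.6% ± 0.656 in WT, 66.1% ± 4.17 in KO 1# and 65.9% ± 0.140 in KO 2#. Second place changed hands: ERBB3 held 35.6% ± 0.674 in WT but 0.601% ± 0.0820 in KO 1# and 0.325% ± 0.313 in KO 2#. EGFR held 2.55% ± 0.127 in WT, 33.2% ± 4.07 in KO 1# and 33.8% ± 0.174 in KO 2#. EGFR stood at 0.0414 ± 0.00162 of the per-length level of ERBB2 in WT, 0.506 ± 0.0934 in KO 1# and 0.513 ± 0.00154 in KO 2#. The differences in these shares were not tested. With the longest transcript as the length, the share of EGFR was 1.74% in WT, 23.3% in KO 1# and 23.7% in KO 2#.

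**Figure D2:**
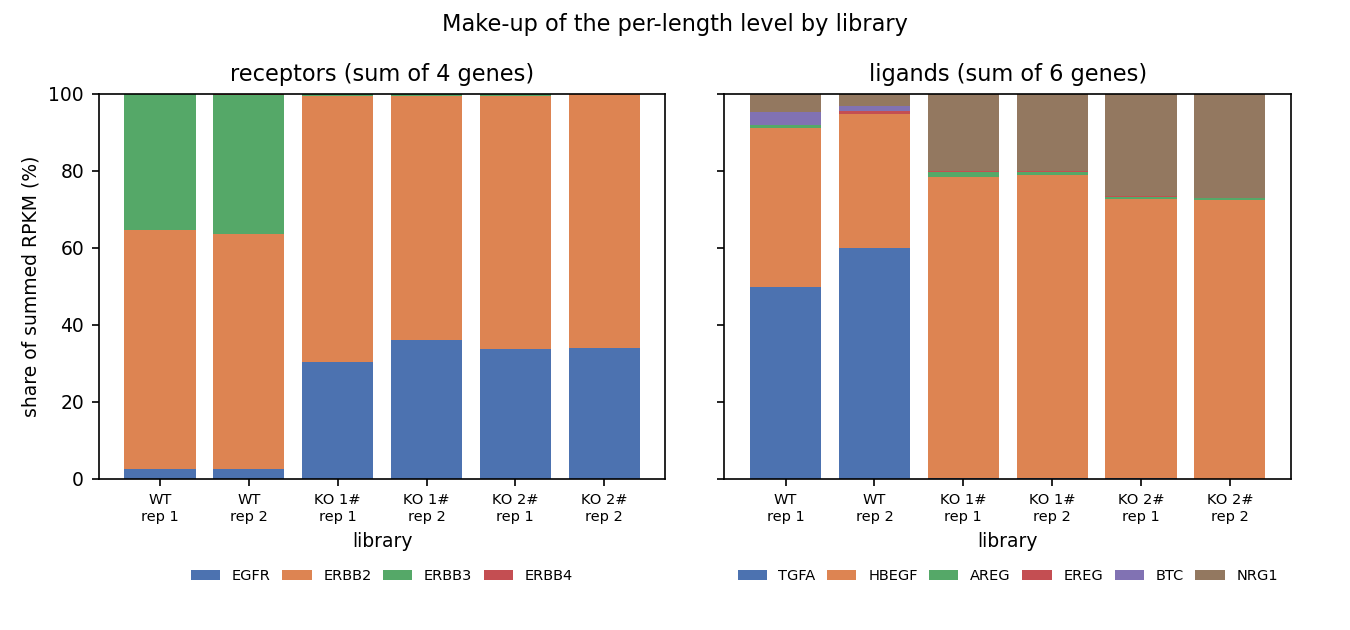
Stacked bars give, for each library, the share (%) of each gene in the summed RPKM of the 4 receptors (left) and of the 6 ligands (right). ERBB3 holds 35.6% of the receptor sum in WT and EGFR 33.2% and 33.8% in KO 1# and KO 2#, while TGFA, the leading ligand in WT with 54.9%, gives way to HBEGF.

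Among the ligands HBEGF and NRG1 rose and TGFA fell. HBEGF (ENSG00000113070, chromosome 5, 140332843 to 140346631, minus strand) encodes heparin-binding EGF-like growth factor, made as a membrane protein and released by proteases. Its level was 1.95 and 1.77 normalised CPM in the WT libraries, 51.1 and 54.2 for KO 1# and 68.8 and 67.2 for KO 2#. All knockout libraries lay above both WT libraries, and KO 2# had the highest mean. It rose 32.1-fold, or 5.00 on the log2 scale with an SE of 0.11 (edgeR adjusted p = 2.93e-17), in 4 of 4 knockout libraries.

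NRG1, which encodes neuregulin 1 (ENSG00000157168, chromosome 8, 31639386 to 32767959, plus strand), had the largest rise of the 7 tested genes. It stood at 0.860 and 0.625 normalised CPM in the WT libraries, 49.7 and 52.2 for KO 1# and 95.1 and 94.0 for KO 2#. Again all knockout libraries lay above both WT libraries, and KO 2# had the highest mean. The rise was 92.5-fold, or 6.53 on the log2 scale with an SE of 0.13 (edgeR adjusted p = 6.04e-18). NRG1 thus rose in the libraries in which its receptors ERBB3 and ERBB4 fell. NRG1 yields many isoforms, and counts per gene do not tell them apart.

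TGFA encodes transforming growth factor alpha (ENSG00000163235, chromosome 2, 70447280 to 70554193, minus strand). It had 203 and 242 counts in the WT libraries, 9 and 11 for KO 1# and 6 and 3 for KO 2#. In normalised CPM it went from 4.46 ± 0.820 (SD, n = 2) to 0.310 ± 0.0332 in KO 1# and 0.159 ± 0.0822 in KO 2#. Every knockout library lay below both WT libraries. TGFA fell 19.9-fold, or -4.31 on the log2 scale with an SE of 0.35 (edgeR adjusted p = 2.88e-09). It reached the minimum count by virtue of WT alone, so this p-value is no separate support for a fall.

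**Figure D3:**
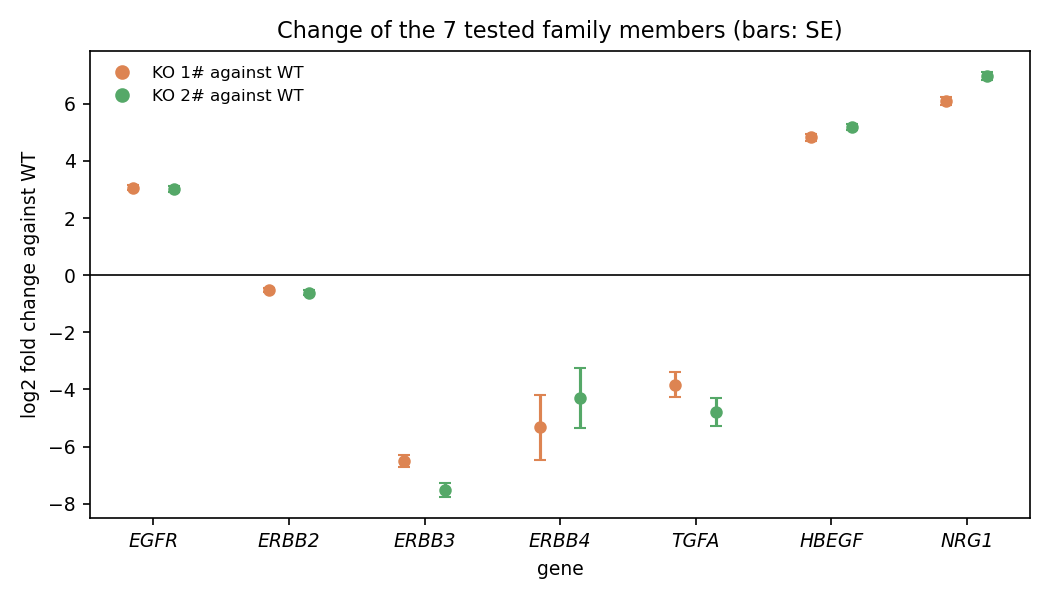
Log2 fold change against WT of the 7 tested genes in KO 1# (orange) and KO 2# (green), from the edgeR fit; bars are SE, and both sets share the 2 WT libraries. EGFR, HBEGF and NRG1 lie above 0 and the other 4 genes below, with NRG1 at 6.09 in KO 1# and 6.98 in KO 2#.

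The remaining 3 ligands lie near each other on chromosome 4 and were scarce in each group. EREG (epiregulin, ENSG00000124882, 74365143 to 74388751, plus strand) and AREG (amphiregulin, ENSG00000109321, 74445134 to 74455009, plus strand) are neighbours, and BTC (betacellulin, ENSG00000174808, 74744759 to 74794686, minus strand) lies further along. AREG had 1 and 0 counts in the WT libraries, 13 and 9 for KO 1# and 8 and 5 for KO 2#, so that 4 of 4 knockout libraries lay above WT. Its ratio to WT was 28.9 (95% exact interval 4.85 to 1172, from 35 counts against 1). EREG had 0 and 4 counts in the WT libraries, 6 and 9 for KO 1# and 4 and 9 for KO 2#, a ratio of 5.77 (2.02 to 22.6). BTC had 8 and 3 counts in WT and 0 in the knockout libraries. Set against 3 counts in each knockout library, BTC was at least 1.11-fold lower. EPGN (epigen, ENSG00000182585, 74308473 to 74315307), a further EGFR ligand beside EREG that is outside the 10 genes and was singled out after its values were seen, had 0 and 1 counts in the WT libraries, 24 and 19 for KO 1# and 26 and 41 for KO 2# (ratio 90.7, interval 15.9 to 3614). In a fit without a low-count filter, AREG passed the threshold (adjusted p = 0.00879) while EREG (adjusted p = 0.145) and BTC (adjusted p = 0.0538) did not.

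Promoter sequences from RefSeq (GRCh38.p14), the 250 bases before the annotated start, were at hand for 6 of the 10 genes: ERBB2, ERBB4, HBEGF, AREG, EREG and BTC. There was no entry for EGFR, ERBB3, TGFA and NRG1. The windows of 3 are printed to set HBEGF, the ligand with the highest per-length level in the knockouts, beside the 2 scarce neighbours AREG and EREG. Each runs 5′ to 3′ on the strand of its gene, and capitals mark matches on either strand to the motifs TATAAA (the TATA box), GGGCGG (the GC box), TGANTCA (the AP-1 motif) and CACCTG (an E-box of SNAI and ZEB factors).
HBEGF, chr5:140346604-140346853, minus strand: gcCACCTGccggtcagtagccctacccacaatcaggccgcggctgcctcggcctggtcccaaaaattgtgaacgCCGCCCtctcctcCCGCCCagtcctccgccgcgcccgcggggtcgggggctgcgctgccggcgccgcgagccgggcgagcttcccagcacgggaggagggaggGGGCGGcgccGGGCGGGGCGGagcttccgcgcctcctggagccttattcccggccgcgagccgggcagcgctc
AREG, chr4:74444886-74445135, plus strand: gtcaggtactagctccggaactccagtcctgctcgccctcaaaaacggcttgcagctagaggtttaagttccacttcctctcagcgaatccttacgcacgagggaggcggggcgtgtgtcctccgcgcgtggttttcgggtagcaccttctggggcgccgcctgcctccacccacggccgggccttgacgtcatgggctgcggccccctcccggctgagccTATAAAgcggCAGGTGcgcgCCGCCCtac
EREG, chr4:74364895-74365144, plus strand: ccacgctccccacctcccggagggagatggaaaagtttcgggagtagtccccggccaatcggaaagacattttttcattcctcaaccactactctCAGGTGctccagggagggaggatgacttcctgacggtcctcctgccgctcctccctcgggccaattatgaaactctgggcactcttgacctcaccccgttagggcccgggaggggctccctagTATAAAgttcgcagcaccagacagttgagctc

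These letters differed between HBEGF and its relatives. The HBEGF window was 76.4% G or C, with 33 CG dinucleotides and 5 matches to GGGCGG, of which a pair share a base, and it held no TATAAA. AREG (65.2% G or C, 23 CG) and EREG (58.0%, 11 CG) each held 1 TATAAA. AREG held 1 GGGCGG and EREG 0, and CACCTG occurred 1 time in HBEGF, AREG, EREG and BTC. TGANTCA occurred in ERBB2 alone among the 6 windows, 1 time. Of 35116 promoters of the same length 10.7% held TATAAA, 42.6% GGGCGG, 17.5% CACCTG and 6.57% TGANTCA, and the median was 58.0% G or C with 11 CG. A match is a description of these letters and says nothing of binding.

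Ligand transcripts summed to 1.63 ± 0.0879 RPKM in WT, 22.3 ± 0.835 in KO 1# and 31.1 ± 0.502 in KO 2# (SD, n = 2 each), while the receptor sum was lower in both knockout sets. TGFA made up 54.9% ± 7.17 and HBEGF 37.9% ± 4.62 of the ligand sum in WT. In KO 1# HBEGF made up 78.4% ± 0.322 and NRG1 20.2% ± 0.0729, and in KO 2# HBEGF 72.5% ± 0.0726 and NRG1 26.9% ± 0.219. The 5 ligands that bind EGFR held 96.0% ± 1.12 of the sum in WT, 79.8% ± 0.0729 in KO 1# and 73.1% ± 0.219 in KO 2#. That share rests on the length used: by counts with no length correction it was 89.6% in WT, 51.3% in KO 1# and 42.0% in KO 2#, so that NRG1 outweighed the other 5 in KO 2#.

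Ranked by per-length level, the order in WT was ERBB2 (14.2 RPKM), ERBB3 (8.21), TGFA (0.899), HBEGF (0.616), EGFR (0.588), NRG1 (0.0656), ERBB4 (0.0582), BTC (0.0383), EREG (0.00729) and AREG (0.00580). Neighbours whose libraries overlapped were HBEGF with EGFR, NRG1 with ERBB4, ERBB4 with BTC, and EREG with AREG. In KO 1# the order was HBEGF (17.5), ERBB2 (9.88), EGFR (4.94), NRG1 (4.50), AREG (0.208), ERBB3 (0.0892), TGFA (0.0624), EREG (0.0406), ERBB4 (0.00116) and BTC at 0, with overlap between ERBB4 and BTC. In KO 2# NRG1 (8.34) stood above EGFR (4.78), behind HBEGF (22.5) and ERBB2 (9.32). The rest followed as AREG (0.139), ERBB3 (0.0455), EREG (0.0392), TGFA (0.0321), ERBB4 (0.00269) and BTC at 0. ERBB3 overlapped EREG there, and EREG overlapped TGFA.

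The knockout sets were compared with each other to ask whether they differ in this family. HBEGF and NRG1 were higher in KO 2# than in KO 1#, and 0 of the 7 tested genes were lower. In this comparison 1.58% of all genes were called higher and 2.28% lower, 3.86% together. NRG1 went from 50.9 ± 1.73 normalised CPM in KO 1# to 94.5 ± 0.755 in KO 2# (SD, n = 2 each), higher by 0.89 on the log2 scale with an SE of 0.09 (edgeR adjusted p = 6.02e-06). HBEGF went from 52.7 ± 2.19 to 68.0 ± 1.17, higher by 0.37 with an SE of 0.09 (edgeR adjusted p = 0.0253). The difference of HBEGF missed the threshold with library totals as the scale (adjusted p = 0.0683). It also missed when KO 1# replicate 1 (adjusted p = 0.0728), KO 2# replicate 1 (adjusted p = 0.206) or KO 2# replicate 2 (adjusted p = 0.161) was left out. EGFR (-0.05, SE 0.09, adjusted p = 0.883) and ERBB2 (-0.08, SE 0.08, adjusted p = 0.693) differed by no more than about their SE. ERBB3 (-0.998, SE 0.44, adjusted p = 0.263), TGFA (-0.96, SE 0.64, adjusted p = 0.505) and ERBB4 (1.02, SE 1.72, adjusted p = 0.851) did not pass the threshold. For ERBB3 the value turned on the KO 2# libraries, which had 19 and 4 counts: without replicate 1 it was -2.55 and passed (adjusted p = 0.00998), and without replicate 2 it was -0.23.

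Other genes of the pathway were taken from lists by role. Counts below are for both knockout sets against WT, and are to be read beside the 35.8% of all genes called higher and 41.4% lower, with a median log2 fold change of -0.13. In numbers, 7043 of the 19660 genes were called higher and 8145 lower. By library totals 4299 were called higher and 11779 lower, and with the 20 most abundant genes kept out of the totals 5443 and 10153. List counts on those scales are to be read beside these numbers. Ligands outside the 10 genes summed to 6.82 to 7.50 normalised CPM in WT and 6.33 to 8.33 in the knockouts. Of EGF, EPGN, NRG2, NRG3 and NRG4, 1 rose, 2 fell and 2 passed in neither direction (median 0.28). EGF itself, the founding ligand, measured 4.44 ± 0.763 normalised CPM (SD, n = 2) in WT against 5.42 ± 0.930 in the knockouts (SD, n = 4; log2 fold change 0.28, adjusted p = 0.202). NRG3, a ligand of ERBB4, fell from 2.00 ± 0.203 to 0.353 ± 0.0341 (-2.49, adjusted p = 1.73e-05).

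Of 9 genes for the release of ligands from the membrane 7 rose and 2 fell (median 1.184), or 5 and 2 by library totals (median 0.45). ADAM12, a metalloprotease that can shed HBEGF, rose from 0.326 ± 0.107 to 305 ± 25.7 normalised CPM (9.84 on the log2 scale, adjusted p = 1.12e-20). ADAM19, which can cleave neuregulin, rose from 39.3 ± 1.60 to 1694 ± 69.8 and ADAM9 from 28.7 ± 0.0618 to 506 ± 73.1, while ADAM8 fell from 5.03 ± 1.67 to 1.52 ± 0.278. CYFIP2 shares 62 exon bases with ADAM19 on the opposite strand. ADAM17, the main sheddase of EGFR ligands, changed less, from 26.1 ± 0.00560 to 39.8 ± 3.09 (0.61, adjusted p = 4.84e-06), and was added outside the naming rule. Scaling by library totals moved the median of all genes by -0.73, more than the size of this rise. IAH1 shares 1323 exon bases with ADAM17 on the opposite strand and had 203 to 311 counts in WT and 390 to 457 in the knockouts.

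Adaptors and transducers changed by small amounts in both directions. Of 25 tested genes 14 rose and 9 fell (median 0.30). By library totals 5 rose and 19 fell (median -0.43), and with the 20 most abundant genes kept out of the totals 8 and 12, so the direction of this group depended on the scaling. The largest changes were in the kinase AKT1 (1.41, adjusted p = 6.69e-12), the GTPase HRAS (1.28, adjusted p = 3.39e-09), the PI3K subunit PIK3CA (1.23, adjusted p = 1.15e-09), which shares 3403 exon bases with KCNMB3 on the opposite strand, and the RAS activator SOS2 (1.21, adjusted p = 4.55e-09).

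Negative regulators were split as well. Of 18 genes 10 rose and 8 fell (median 0.21), or 4 and 12 by library totals (median -0.53) and 6 and 10 with the 20 most abundant genes kept out of them. LRIG3, a membrane protein of the family that restrains ERBB receptors, rose from 8.41 ± 0.787 to 191 ± 6.91 normalised CPM (4.50, adjusted p = 1.98e-18), and the ERK phosphatase DUSP4 from 13.2 ± 1.15 to 51.0 ± 10.5. The phosphatase DUSP5 fell from 36.3 ± 3.35 to 10.3 ± 0.453 and the feedback inhibitor SPRY4 from 247 ± 11.9 to 72.2 ± 8.85. CBLC, an epithelial ubiquitin ligase of the CBL family singled out after its values were seen, had 1134 and 939 counts in WT and 0 in the 4 knockout libraries, at least 210-fold lower against 3 counts in each library.

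Of 14 early response genes that ERK signalling is known to induce, 11 rose and 2 fell (median 1.26), or 9 and 4 by library totals (median 0.53). JUNB rose from 4.004 ± 0.553 to 91.3 ± 7.45 normalised CPM (4.51, adjusted p = 1.03e-16), with HOOK2 sharing 259 exon bases on the opposite strand. IER3, an early response gene of cell survival, rose from 33.8 ± 0.937 to 469 ± 68.2, the AP-1 subunit JUN from 15.2 ± 0.387 to 133 ± 11.7 and the zinc finger factor EGR2 from 0.767 ± 0.300 to 4.67 ± 0.745. The 2 that fell, named after their values were seen, were ETV4, from 116 ± 4.58 to 28.3 ± 1.60, and IER2, from 49.8 ± 0.0895 to 26.2 ± 1.99. These genes respond to many signals, and no signalling activity was measured.

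**Figure D4:**
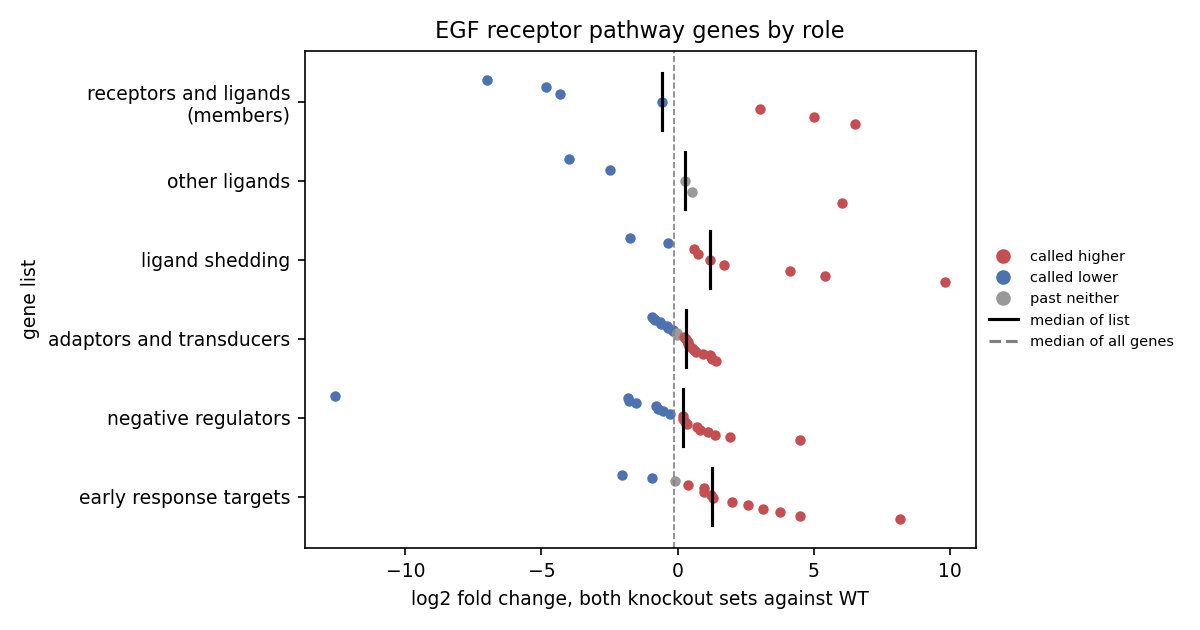
Log2 fold change (both knockout sets against WT) of each tested gene by role; red points were called higher, blue lower, grey neither, black bars are list medians and the dashed line is the median of all genes (-0.13). The 10-gene family spreads widely around that line, while adaptors and transducers stay within 2 log2 units of it.

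Lastly, genes with the most similar pattern over the 6 libraries were sought for EGFR and ERBB3 by the root mean square difference of centred log2 CPM among 19659 other genes. The closest to EGFR were HS3ST3A1 (0.0534), CST3 (0.0543) and HMCN1 (0.0581 log2 units). Those closest to ERBB3 were NKAIN1 (0.245), TMEM30B (0.268) and PHF21B (0.273). All of them had their lowest level in KO 2# replicate 2, as ERBB3 did, which a choice by likeness over the same libraries favours. With 6 libraries and most genes differing between WT and the knockouts, such likeness is a description only.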

How the data were processed

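Raw counts per gene were deposited by the authors, 1 column per library. The submitters' processing notes name HISAT2 2.0.4, SAMtools 1.3.1, HTSeq 0.6.0, DESeq 1.18.1 and the build GRCh38. What each tool did, which annotation was used and whether strand was counted is not given in the sources used here, so reads of overlapping genes may be counted with a named gene. Per the labels, libraries were made from 1 ug of Trizol-extracted total RNA with a TruSeq kit.

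All 6 libraries entered 1 edgeR 4.0.16 quasi-likelihood fit in R 4.3.3 (legacy, robust; 3 groups, 3 residual degrees of freedom; biological coefficient of variation 0.0829), with TMM scaling and filterByExpr at a minimum count of 10, which kept 19660 genes. Tests were two-sided, with Benjamini-Hochberg adjustment over these genes and a threshold of 0.05. SEs come from the F statistic. RPKM used union exon lengths of GENCODE 29, which holds 58275 of the 58395 identifiers. Ratios resting on few counts carry exact 95% intervals, and a group at 0 was set to 3 counts in each library; both cover counting error only. Replicates differed by more than counting noise (chi-square per gene 4.25 to 11.5), so none was a repeat deposit of another. DESeq2 1.42.0 and 13 other settings served as alternatives.

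The 10 genes and the lists were chosen with earlier results of these data known. The naming rule took, per list, the 4 largest called changes with an average log2 CPM of at least 1, or the 2 most abundant genes where fewer than 2 passed, and for EGFR and ERBB3 the 3 most similar genes (log2 CPM with a prior count of 2).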

Additional observations from a re-analysis of the deposited data

Results flagged for a closer look

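NRG1 differed between the knockout sets, with a log2 fold change of 0.89 for KO 2# against KO 1# (SE 0.09, edgeR adjusted p = 6.02e-06). It passed the threshold in 14 of 14 alternatives (0.84 to 0.94, adjusted p from 3.38e-18 to 5.25e-05).

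HBEGF also differed, with a log2 fold change of 0.37 (SE 0.09, edgeR adjusted p = 0.0253), and passed in 10 of 14 alternatives (0.32 to 0.42, adjusted p from 0.00164 to 0.206). Both genes had been compared with WT on the same 2 WT libraries.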

How the results depend on the processing

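Of 378 single-gene values recomputed under 14 alternatives, 370 kept their direction and their side of the threshold, 5 missed it (HBEGF between the knockout sets in 4, ERBB4 in KO 2# in 1), 1 passed it (ERBB3 between the knockout sets) and 2 changed sign. Both sign changes were in uncalled differences between the knockout sets: leaving out a replicate, EGFR ranged from -0.11 to 0.028 and ERBB2 from -0.20 to 0.049. Against WT the counts of 3 genes higher and 4 lower moved by no more than 1.5 times in each alternative run. Between the knockout sets 2 genes were higher, but 1 by library totals and 1 to 2 leaving out a replicate, and 0 were lower, or 0 to 1 leaving out a replicate. By the longest transcript and by counts with no length correction, EGFR held 1.74% and 3.21% of the receptor level for WT, 23.3% and 37.7% for KO 1# and 23.7% and 38.3% for KO 2#, and the EGFR ligands held 93.7% and 89.6% of the ligand level for WT, 72.4% and 51.3% for KO 1# and 64.3% and 42.0% for KO 2#.

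Scaling by library totals moved the median of all genes by -0.73 and totals without the 20 most abundant genes by -0.40. Calls against WT that were higher, 46.4% of all calls (7043 genes), became 26.7% (4299 genes) and 34.9% (5443 genes), with 4264 against 6872 genes higher in KO 1# and 4078 against 6795 in KO 2# by totals. Between the knockout sets 41.0% of the calls were higher, or 25.7% and 30.5% on those scales, and the 311 genes higher and 448 lower became 522 and 460 with DESeq2, 512 and 489 with only the groups compared, and 153 to 695 and 213 to 702 leaving out a replicate. Replicate numbers share no stated batch, and deviations of same-numbered libraries correlated by 0.0110 to 0.0336. With the replicate number as a block, 804 genes were higher and 830 lower between the knockout sets, and of the tested members 3 were higher and 4 lower against WT, and 2 and 0 between the knockout sets.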
